A study of Mus musculus with 4 samples.

Results

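Megakaryocyte and platelet genes were examined in osteoclast progenitors that lacked or carried Ptip. The group holds 9 genes listed by symbol, of the 18276 genes in the table, with earlier results of these data known: the chemokines Pf4 and Ppbp, the glycoproteins Gp9, Gp1bb and Gp6, von Willebrand factor (Vwf), the receptors Treml1 and F2r, and Pdzk1ip1. The cells came from fresh bone marrow of B6;129 mice, sorted as CD115 positive and negative for B220, CD3 and Mac-1. The Ptip_KO group was Ptip flox/flox Mx-1Cre (2 libraries) and the WT group was WT Mx-1Cre (2 libraries). Both groups carry Mx-1Cre, a Cre recombinase under the interferon-inducible Mx1 promoter that acts in many haematopoietic cells and in the liver, so deletion is not restricted to osteoclast progenitors. The agent that induced Cre, the age and sex of the mice and any pooling are not given in the sources used here. The 2 libraries of a group are described as independent, but no label ties them to separate animals, so p-values measure only the spread between these samples.

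Megakaryocytes are the large bone marrow cells that shed platelets. Platelets bind exposed vessel wall through von Willebrand factor and collagen, are activated by thrombin, and release chemokines and adhesive proteins from their alpha granules. They keep RNA made by the megakaryocyte and adhere readily to leukocytes. In a bulk library, fewer cells of a type and less RNA per cell cannot be told apart.

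Levels are given in CPM (counts scaled to the effective library size), and the libraries held 76184092 and 67592972 reads for Ptip_KO and 77773478 and 77417411 for WT. A count of 0 would allow up to 3 reads, or 0.0380 to 0.0428 CPM, for counting error only. Paxip1, the gene that encodes PTIP, had 5.10 and 3.73 CPM in Ptip_KO against 106 and 103 CPM in WT (log2 fold change -4.29, limma adjusted p = 0.000383). Csf1r, which encodes CD115, the positive marker of the sort, had 825 and 782 CPM in Ptip_KO versus 677 and 606 CPM in WT. Of the lineages the sort removed, Cd3e had 0 reads in Ptip_KO replicate 1, whereas Itgam, which encodes a chain of Mac-1, had 39.2 and 35.1 CPM in Ptip_KO versus 42.1 and 39.6 CPM in WT. WT replicate 2 stood apart in its sex-linked genes: Xist, expressed from the inactive X, was at 298 CPM in it and at 0.0428 to 0.0814 CPM elsewhere, and Ddx3y, on the Y chromosome, was at 0.101 CPM in it and at 69.1 to 89.6 CPM elsewhere. Each gene named here as called kept its direction without that library. A fit that leaves 1 library in a group takes the spread between replicates from the other group alone. Its p-values and calls are therefore not comparable with those of the full test.

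The 9 genes were close to the lower limit of the table. Together they held 0.000697% to 0.00319% of a library's reads, with 2 to 699 reads for a gene in a library. Only Pdzk1ip1 was called lower in Ptip_KO. Of the 9 genes, 4 reached 1 CPM in at least 2 libraries and were tested (Pf4, Vwf, F2r and Pdzk1ip1), and the remaining 5 lay under that filter and were not tested. Pdzk1ip1 was thus 1 of 4 tested and of 9 in all, where 6.29% of the 12357 tested genes were called in either direction and 3.86% were called lower in Ptip_KO, at a limma adjusted p under 0.05. By edgeR and by DESeq2 it was also the 1 tested gene of the group called, where 3.37% and 9.11% of tested genes were called lower. All 9 had a lower mean log2(CPM + 1) in Ptip_KO, with differences from -1.96 to -0.014 and a median of -0.52. Of the 18276 genes, 49.4% were lower, with a median of 0.0032. In 3 of the 9 (Ppbp, Gp9 and Pdzk1ip1) both Ptip_KO libraries lay below both WT libraries, which held for 25.2% of all genes in the table, and in 0 of the 9 they lay above, which held for 25.6%. The summed level of the 9 genes was 6.98 and 13.7 CPM in Ptip_KO against 16.2 and 31.3 CPM in WT, and without Pdzk1ip1 it was 6.38 and 12.3 CPM against 10.2 and 23.9 CPM. The groups overlap once Pdzk1ip1 is left out.

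**Figure D1:**
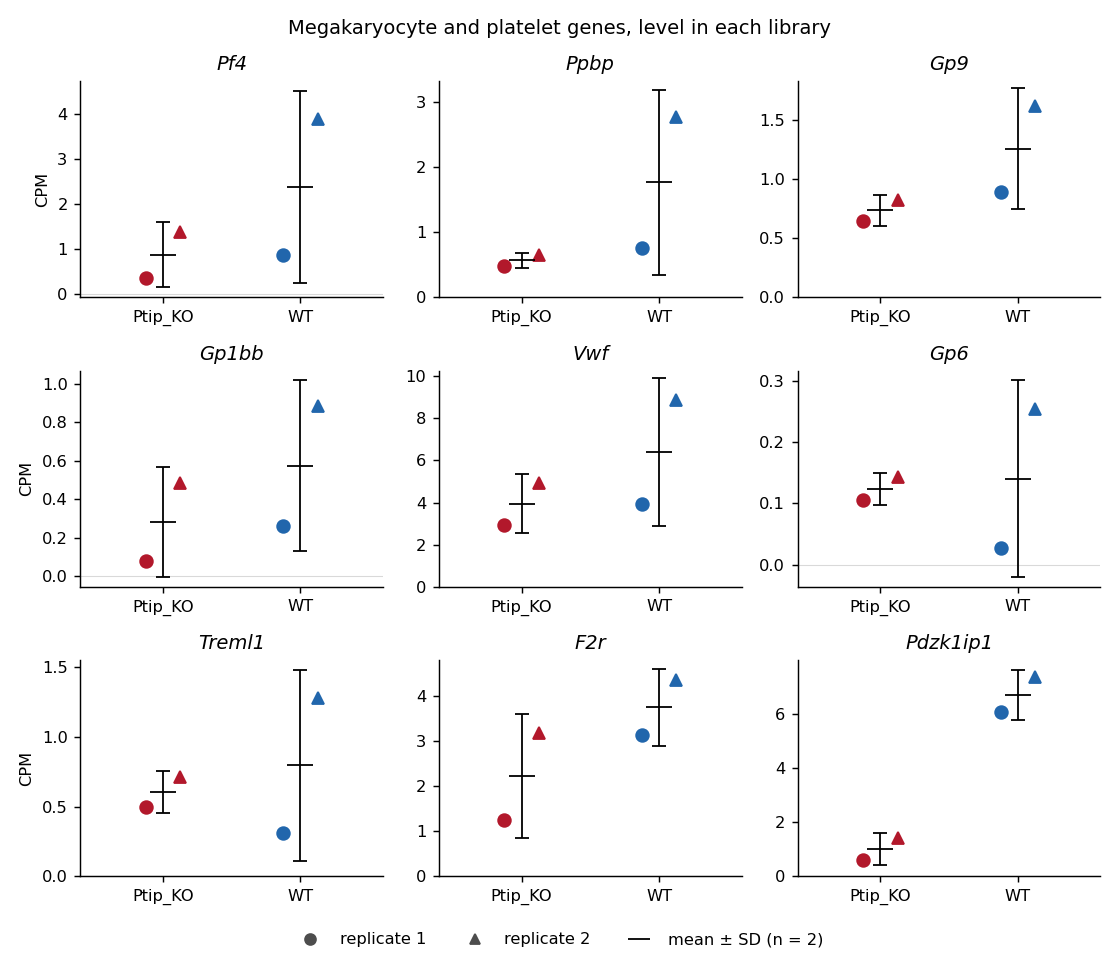
Level in CPM (linear y axis, a scale of its own for each gene) of the 9 genes in the Ptip_KO and WT libraries; circles are replicate 1, triangles replicate 2, and bars the mean ± SD (n = 2). Pdzk1ip1 is the clearest separation, with 0.591 and 1.43 CPM in Ptip_KO against 6.05 and 7.34 CPM in WT, and replicate 2 lies above replicate 1 in every panel.

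Pf4 and Ppbp encode the chemokines CXCL4 and the precursor of CXCL7, which are among the most abundant alpha granule proteins. In mm10 they lie on the same strand of chromosome 5, Ppbp at chr5:90768518-90770063 (+) and Pf4 at chr5:90772435-90773383 (+), 2371 bases apart. Their promoters are shown because the 2 genes are adjacent and share the lineage, and because megakaryocyte genes are known targets of GATA1 and of ETS factors such as FLI1. The windows run from 250 bases before to 50 after the start (RefSeq, GRCm38.p6), chr5:90772185-90772484 (+) for Pf4 and chr5:90768268-90768567 (+) for Ppbp. Capitals mark a GATA motif (A or T, then GATA, then A or G) or an ETS motif (A or C, then GGAAG) on either strand.
Pf4: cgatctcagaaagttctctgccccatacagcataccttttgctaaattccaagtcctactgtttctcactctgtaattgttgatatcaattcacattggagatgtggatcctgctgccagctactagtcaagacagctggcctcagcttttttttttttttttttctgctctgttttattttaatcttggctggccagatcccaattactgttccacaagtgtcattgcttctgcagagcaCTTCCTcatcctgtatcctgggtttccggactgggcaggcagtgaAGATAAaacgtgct
Ppbp: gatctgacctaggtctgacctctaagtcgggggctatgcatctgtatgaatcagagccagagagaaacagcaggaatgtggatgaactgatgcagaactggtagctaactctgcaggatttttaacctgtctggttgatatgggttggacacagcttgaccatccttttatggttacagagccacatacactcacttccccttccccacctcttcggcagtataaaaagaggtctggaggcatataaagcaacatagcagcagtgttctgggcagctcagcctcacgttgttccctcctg
The Pf4 window held an ETS motif on the opposite strand just before the start and a GATA motif just after it, and the Ppbp window held neither. Of 32851 mouse promoters of the same length, 29.8% held a GATA motif, 46.5% an ETS motif and 12.6% both. Of the 8 promoters of the group in the table, GATA motifs were in 3 (Pf4, Gp1bb and Gp6), ETS motifs in 3 (Pf4, Gp9 and Gp1bb) and both in 2. A match is a description of letters and not a bound site.

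Pf4 had 0.355 and 1.38 CPM in Ptip_KO (27 and 97 reads) versus 0.868 and 3.89 CPM in WT (64 and 307 reads). The groups overlap, since Ptip_KO replicate 2 lay above WT replicate 1, and the highest library of all was WT replicate 2. The means were 0.870 ± 0.728 CPM in Ptip_KO versus 2.38 ± 2.14 CPM in WT (SD, n = 2 each). The log2 fold change was -0.75 (SE 0.50, 95% interval -2.0004 to 0.50, limma adjusted p = 0.432). Without WT replicate 2 it was -0.056, and without WT replicate 1 it was -1.44, so the choice of WT library decided its size.

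Ppbp had 0.486 and 0.642 CPM in Ptip_KO (37 and 45 reads) against 0.760 and 2.76 CPM in WT (56 and 218 reads). Both Ptip_KO libraries lay below both WT libraries, but WT replicate 1 was close to them and WT replicate 2 stood well above. The means were 0.564 ± 0.110 CPM in Ptip_KO versus 1.76 ± 1.42 CPM in WT (SD, n = 2 each), a difference of -0.72 on the log2(CPM + 1) scale. Without WT replicate 2 the difference was -0.17. Ppbp lay under the filter; when all 18276 genes were tested it had a limma adjusted p of 0.305.

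The closest gene of the CXC chemokine cluster measured here was Cxcl2, which encodes a neutrophil attractant and lies 130487 bases beyond Pf4. It had 5.54 and 6.94 CPM in Ptip_KO versus 6.51 and 15.5 CPM in WT (log2 fold change -0.63, limma adjusted p = 0.369). As with the 2 platelet chemokines, WT replicate 2 was the highest library. The log2 fold change was -0.060 without WT replicate 2 (limma adjusted p = 0.861) and -1.20 without WT replicate 1 (limma adjusted p = 0.00165).

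The receptor for von Willebrand factor on platelets is the GPIb-IX-V complex, to which Gp9 contributes glycoprotein IX and Gp1bb the beta chain of glycoprotein Ib. Loss of either chain causes Bernard-Soulier syndrome in people. The Gp9 gene lies at chr6:87778072-87779768 (+). It had 0.644 and 0.828 CPM in Ptip_KO (49 and 58 reads) against 0.895 and 1.62 CPM in WT (66 and 128 reads). The groups did not overlap, yet Ptip_KO replicate 2 and WT replicate 1 were near each other. The means were 0.736 ± 0.130 CPM in Ptip_KO versus 1.26 ± 0.515 CPM in WT (SD, n = 2 each), a log2 difference of -0.36, and of -0.13 without WT replicate 2. Gp9 was not tested under the filter, and with no filter its limma adjusted p was 0.361.

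Gp1bb lies at chr16:18620317-18622403 (-), inside the annotated span of Sept5 and Gm49601 on the same strand. Its transcript shares near-identical sequence with both, so how reads of the overlap were assigned is unclear and its level is uncertain. Its promoter, chr16:18622354-18622653 (-), is shown because it held the most motifs of the group, a GATA motif and 2 ETS motifs in capitals as above.
Gp1bb: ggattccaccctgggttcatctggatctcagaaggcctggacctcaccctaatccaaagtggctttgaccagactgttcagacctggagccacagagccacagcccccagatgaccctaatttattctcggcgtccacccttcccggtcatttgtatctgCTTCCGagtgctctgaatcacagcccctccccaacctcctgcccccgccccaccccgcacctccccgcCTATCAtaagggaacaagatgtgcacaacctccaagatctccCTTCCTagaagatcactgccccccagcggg
Gp1bb had 0.0788 and 0.485 CPM in Ptip_KO (6 and 34 reads) versus 0.258 and 0.888 CPM in WT (19 and 70 reads). The groups overlap, and in both of them replicate 2 was several times higher than replicate 1. The means were 0.282 ± 0.287 CPM in Ptip_KO versus 0.573 ± 0.445 CPM in WT (SD, n = 2 each), a log2 difference of -0.28 that was 0.0092 without WT replicate 2. Gp1bb was not tested under the filter.

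Sept5, which encodes a septin found in platelets and neurons, fell to 0.893 and 0.871 CPM in Ptip_KO, against 3.38 and 7.37 CPM in WT (log2 fold change -1.69, limma adjusted p = 0.0409). The call lay near the threshold. A fit with a single Ptip_KO library cannot test it, since the spread then comes from WT alone. How the overlap of Sept5 and Gp1bb affected the counts of either gene was not tested.

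Vwf encodes the multimeric adhesive protein that tethers platelets to the vessel wall and is made by megakaryocytes and endothelial cells. The gene lies at chr6:125546774-125686679 (+). It had 2.96 and 4.92 CPM in Ptip_KO (225 and 345 reads) versus 3.91 and 8.86 CPM in WT (288 and 699 reads), the largest counts of the group in 3 of the 4 libraries. Ptip_KO replicate 2 lay above WT replicate 1, so the groups overlap. The means were 3.94 ± 1.39 CPM in Ptip_KO versus 6.39 ± 3.50 CPM in WT (SD, n = 2 each), with a log2 fold change of -0.52 (SE 0.37, 95% interval -1.44 to 0.39, limma adjusted p = 0.452). As for Pf4, the value turned on the WT library used: -0.020 without WT replicate 2 and -1.03 without WT replicate 1.

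Endothelial genes were low in all libraries. The 14 measured endothelial markers summed to 14.003 and 16.2 CPM in Ptip_KO versus 16.4 and 23.7 CPM in WT, and none was at 0. Cdh5, which encodes VE-cadherin of endothelial junctions and was picked here after its values were seen, had 0.512 and 0.385 CPM in Ptip_KO versus 0.285 and 0.647 CPM in WT. Tie1, an endothelial receptor kinase and the highest of the list, had 4.48 and 6.84 CPM in Ptip_KO versus 5.67 and 9.83 CPM in WT (limma adjusted p = 0.486). The part of such cells in the level of Vwf was not tested.

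Gp6 encodes glycoprotein VI, the collagen receptor of platelets, which signals through the ITAM motif of the Fc receptor gamma chain. The gene lies at chr7:4363965-4397744 (-). It had the lowest mean of the group in each genotype, with 0.105 and 0.143 CPM in Ptip_KO (8 and 10 reads) versus 0.0271 and 0.254 CPM in WT (2 and 20 reads). WT held both the lowest and the highest library, and the 2 reads of WT replicate 1 are under the limit that a count of 0 allows. The exact Poisson 95% intervals, which cover counting error only, were 0.0454 to 0.207 and 0.0684 to 0.262 CPM in Ptip_KO and 0.00329 to 0.0980 and 0.155 to 0.392 CPM in WT. A difference between the genotypes was not detectable at this depth: on the log2 scale it was -0.014, and 0.13 without WT replicate 2. Downstream of glycoprotein VI, Plcg2, the phospholipase of ITAM signalling that myeloid cells also express, had 451 and 420 CPM in Ptip_KO versus 582 and 454 CPM in WT (limma adjusted p = 0.376).

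Treml1 encodes TLT-1, a receptor held in alpha granules that reaches the platelet surface on activation. It lies in the Trem gene cluster at chr17:48359916-48367176 (+). It had 0.499 and 0.714 CPM in Ptip_KO (38 and 50 reads) versus 0.312 and 1.28 CPM in WT (23 and 101 reads). The Ptip_KO libraries lay between the 2 WT libraries. The means were 0.606 ± 0.152 CPM in Ptip_KO versus 0.796 ± 0.685 CPM in WT (SD, n = 2 each), a log2 difference of -0.11 that was 0.29 without WT replicate 2. Treml1 was not tested under the filter.

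Its neighbours in the cluster are expressed in myeloid cells, and they did not share one direction. Trem2, a DAP12-coupled receptor of osteoclasts and macrophages whose gene ends 5768 bases before Treml1, was higher at 104 and 87.1 CPM in Ptip_KO against 38.6 and 40.3 CPM in WT (log2 fold change 1.25, limma adjusted p = 0.00658). Trem1, an activating receptor of neutrophils and monocytes, fell to 8.197 and 7.56 CPM in Ptip_KO, against 19.0 and 29.8 CPM in WT (log2 fold change -1.48, limma adjusted p = 0.0222, and 0.0505 after rescaling to a common sum). Treml4 fell to 1.33 and 1.03 CPM in Ptip_KO, against 4.11 and 3.46 CPM in WT (log2 fold change -1.14, limma adjusted p = 0.0244). A fit with a single Ptip_KO library cannot test that call. Of the 5 cluster genes tested, 1 was called higher and 2 lower, against 2.43% and 3.86% of all tested genes. Treml2, the highest of the cluster, had 128 and 122 CPM in Ptip_KO versus 95.7 and 127 CPM in WT (limma adjusted p = 0.516).

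F2r encodes PAR1, a receptor that thrombin activates by cleavage. It is the main thrombin receptor of human platelets, whereas mouse platelets rely on other members of the family. The gene lies at chr13:95601803-95618487 (-). It had 1.26 and 3.20 CPM in Ptip_KO (96 and 224 reads) versus 3.15 and 4.36 CPM in WT (232 and 344 reads). Ptip_KO replicate 1 was the low library, and Ptip_KO replicate 2 was at the level of WT replicate 1. The means were 2.23 ± 1.37 CPM in Ptip_KO versus 3.75 ± 0.859 CPM in WT (SD, n = 2 each), with a log2 fold change of -0.61 (SE 0.32, 95% interval -1.41 to 0.18, limma adjusted p = 0.314). Without WT replicate 2 it was -0.43, and without Ptip_KO replicate 1 it was -0.17.

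Pdzk1ip1 encodes MAP17, a small membrane protein that binds PDZ domains. In mice its expression marks haematopoietic stem cells. The gene lies at chr4:115088708-115093899 (+), 16952 bases beyond Tal1, which encodes a transcription factor of stem cells, red cells and megakaryocytes. Its promoter, chr4:115088458-115088757 (+), is shown because this was the only called gene of the group. It held neither a GATA nor an ETS motif as spelled above.
Pdzk1ip1: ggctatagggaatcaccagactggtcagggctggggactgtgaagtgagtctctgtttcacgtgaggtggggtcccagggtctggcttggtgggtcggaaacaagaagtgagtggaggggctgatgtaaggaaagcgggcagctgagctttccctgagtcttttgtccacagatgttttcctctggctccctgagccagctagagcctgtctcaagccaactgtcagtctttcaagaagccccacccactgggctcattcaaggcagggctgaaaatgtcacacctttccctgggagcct
Pdzk1ip1 had 0.591 and 1.43 CPM in Ptip_KO (45 and 100 reads) against 6.05 and 7.34 CPM in WT (446 and 579 reads). The groups were far apart, and the spread within each was small beside the gap. The means were 1.01 ± 0.591 CPM in Ptip_KO versus 6.70 ± 0.913 CPM in WT (SD, n = 2 each), a ratio of WT over Ptip_KO of 6.64. The log2 fold change was -1.96 (SE 0.24, 95% interval -2.56 to -1.37, limma adjusted p = 0.0149). It was called in all 16 alternative settings, with log2 fold changes from -2.87 to -0.96 and adjusted p-values from 2.62e-07 (DESeq2) to 0.0444 (edgeR). Without WT replicate 2 it was -1.84. Among the 477 genes called lower, 53 had a larger decrease than Pdzk1ip1, and the median of all 477 was -1.21. With 2 libraries a group an exact permutation test, 2-sided, cannot go below 0.333, so the calls rest on the variance shared across genes.

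Tal1, on the same strand, had 20.6 and 25.2 CPM in Ptip_KO versus 24.9 and 37.6 CPM in WT (log2 fold change -0.41, limma adjusted p = 0.301), with overlapping groups. Other stem and progenitor genes did not share one result. Kit, the stem cell factor receptor, fell to 14.4 and 16.1 CPM in Ptip_KO, against 49.5 and 73.1 CPM in WT (log2 fold change -1.91, limma adjusted p = 0.00908). Flt3, a receptor of early progenitors, fell to 42.8 and 34.5 CPM in Ptip_KO, against 67.6 and 77.8 CPM in WT (log2 fold change -0.90, limma adjusted p = 0.0244). Cd34, a surface marker of progenitors, had 288 and 272 CPM in Ptip_KO versus 192 and 246 CPM in WT (limma adjusted p = 0.184). In all, 2 of the 8 tested genes of that list were called, both lower, where 3.86% of all tested genes were called lower. The genes of that list had a median of -0.26 against 0.0032 over all tested genes. Their part in the result for Pdzk1ip1 was not tested.

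**Figure D2:**
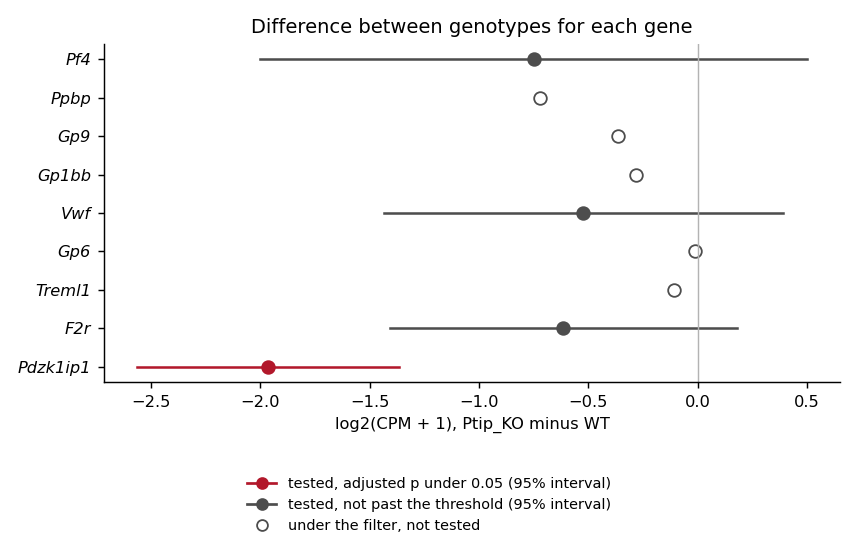
Difference between Ptip_KO and WT on the log2(CPM + 1) scale (x axis) for each of the 9 genes; filled points have 95% intervals from limma, open points are genes under the filter with no test. All 9 points lie at or left of 0, and the interval of Pdzk1ip1, -2.56 to -1.37, is the only one of the 4 that does not include 0.

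Levels were also set per kilobase of exon, so that genes of unlike length can be compared. The length joins all annotated exons of a gene, so it can exceed that of a single transcript, which lowers the value. Places in the order, that of Vwf among them, depend on this length. The order in Ptip_KO began with Pf4 at 1.21 CPM per kb, Gp9 at 0.835, F2r at 0.668 and Pdzk1ip1 at 0.568 CPM per kb. In WT it began with Pdzk1ip1 at 3.77 CPM per kb, Pf4 at 3.30, Ppbp at 1.63 and Gp9 at 1.43 CPM per kb. Vwf, whose exons span 16064 bases, stood just above Gp1bb and Gp6 at the low end of both orders, at 0.245 CPM per kb in Ptip_KO and 0.397 in WT, with Gp6 at 0.0210 CPM per kb in Ptip_KO and 0.0238 in WT. The order is loose: in each group 6 of the 8 neighbouring pairs overlapped between libraries. The pairs that did not overlap were Treml1 with Vwf and Gp1bb with Gp6 in Ptip_KO, and F2r with Treml1 and Gp1bb with Gp6 in WT.

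The 9 genes also varied together within each genotype. Replicate 2 was higher than replicate 1 for 9 of 9 genes in Ptip_KO and for 9 of 9 in WT. The median ratio of replicate 2 to replicate 1 was 1.67 in Ptip_KO and 3.44 in WT. Among the 6733 genes whose mean lay in the same range (0.132 to 5.16 CPM), replicate 2 was higher in both groups for 49.2%, with median ratios of 1.15 in Ptip_KO and 1.27 in WT. The largest ratios were 6.16 for Gp1bb in Ptip_KO and 9.35 for Gp6 in WT, both resting on a replicate 1 with 6 and 2 reads. The ratio was larger in Ptip_KO than in WT for Gp1bb, F2r (2.54 against 1.39) and Pdzk1ip1 (2.41 against 1.21), and larger in WT for the remaining 6 genes. Replicate numbers carry no order, and no label links the libraries that share a number.

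**Figure D3:**
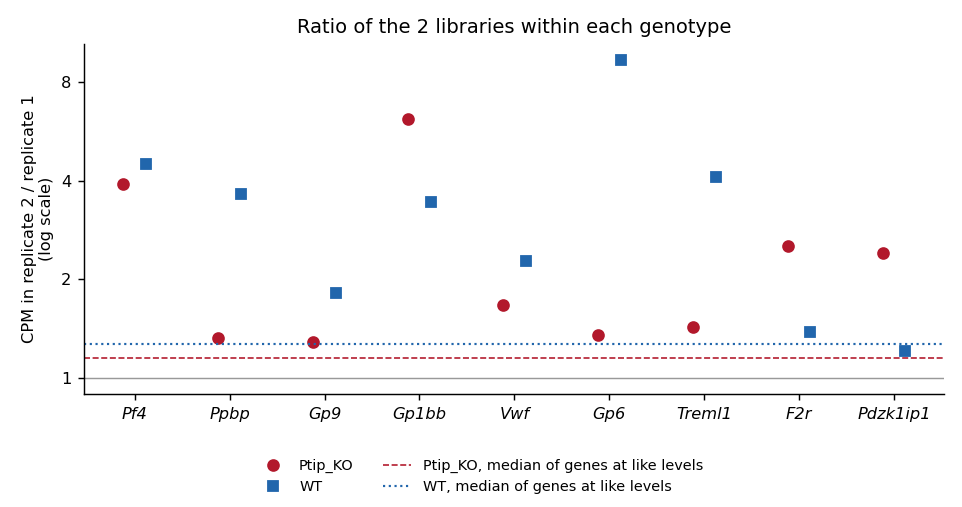
Ratio of replicate 2 to replicate 1 (log-scaled y axis) for each of the 9 genes in Ptip_KO (circles) and WT (squares); dashed and dotted lines give the medians over genes at like levels, 1.15 in Ptip_KO and 1.27 in WT. Every point lies above 1, from 1.21 for Pdzk1ip1 in WT to 9.35 for Gp6 in WT.

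Markers of other cell types also differed between the same libraries. All 22 measured red cell genes were higher in replicate 2 than in replicate 1 in both groups, and so were all 8 basophil and mast cell genes. Of 11 monocyte and osteoclast progenitor genes, 1 was higher in replicate 2 of Ptip_KO. The red cell genes summed to 996 and 1351 CPM in Ptip_KO against 2562 and 5446 CPM in WT, and the basophil and mast cell genes to 166 and 269 CPM in Ptip_KO versus 157 and 332 CPM in WT. The monocyte genes summed to 10006 and 8088 CPM in Ptip_KO versus 15032 and 9990 CPM in WT, and the neutrophil genes to 9452 and 10197 CPM in Ptip_KO versus 8475 and 12880 CPM in WT. Mpo, which encodes myeloperoxidase, made up most of the neutrophil sum, at 7772 and 8481 CPM in Ptip_KO versus 5885 and 8162 CPM in WT, whereas 7 of the 8 neutrophil genes had a lower mean in Ptip_KO, with a median log2 fold change of -1.22. No gene of these 4 lists was at 0 in any library. The part of these cells in the platelet gene levels was not tested.

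Red cell genes, whose lineage shares a progenitor with megakaryocytes, were mostly called lower in Ptip_KO. The count was 17 of 22 tested, where 3.86% of all tested genes were called lower, and the median log2 fold change was -1.65. The 17 calls became 8 after rescaling to a common sum, 10 with a robust variance prior, and 9 each with edgeR and limma-voom. Over all 12357 tested genes, the 777 calls became 585, 875, 660 and 577 in the same order. The called genes with the smallest p were Tspan33, a tetraspanin of erythroblasts (-1.56, limma adjusted p = 0.0126), Hemgn, a nuclear protein of haematopoietic cells (-1.83, limma adjusted p = 0.0146), and Rhag, a Rh-associated membrane protein (-1.49, limma adjusted p = 0.0151). Hbb-bs, an adult beta globin and the highest of the list, had 394 and 548 CPM in Ptip_KO versus 966 and 2853 CPM in WT (limma adjusted p = 0.0927). With either WT library left out it stayed lower in Ptip_KO.

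A wider list of 76 other megakaryocyte and platelet genes had 73 in the table and 55 tested. Of these, 5 were called lower and 2 higher in Ptip_KO, with 29 negative and 26 positive fold changes. The median was -0.12, against 0.0032 over all 12357 tested genes. Many of its genes are also expressed in monocytes. After rescaling to a common sum, the calls of Cd36, Actn1 and Mef2c were lost (limma adjusted p between 0.0501 and 0.0758). The counts are 5 and 2 of 55 where 3.86% and 2.43% of all tested genes were called lower and higher. Replicate 2 was higher in both groups for 41 of the 73, against all 9 of the first group.

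Surface receptors held 3 of the 5 called lower. Itga6, the integrin alpha 6 chain of a laminin receptor, fell to 23.0 and 22.8 CPM in Ptip_KO, against 51.2 and 65.5 CPM in WT (log2 fold change -1.30, limma adjusted p = 0.00992). Cd9, a tetraspanin abundant on platelets whose gene lies 51982 bases from Vwf, fell to 6.76 and 8.58 CPM in Ptip_KO, against 21.6 and 28.7 CPM in WT (log2 fold change -1.59, limma adjusted p = 0.0123). Cd36, a receptor for thrombospondin and fatty acids, fell to 3.28 and 4.08 CPM in Ptip_KO, against 8.52 and 14.7 CPM in WT (log2 fold change -1.39, limma adjusted p = 0.0397). Its adjusted p was 0.0572 with edgeR and 0.0909 with limma-voom. Without Ptip_KO replicate 1 the log2 fold change of Cd36 was -1.27. The list median over 13 tested receptors was -0.45.

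None of the following receptors was called, and not all of them were tested. Itga2b, the integrin alpha IIb chain that pairs with beta 3 to bind fibrinogen, had 5.33 and 10.9 CPM in Ptip_KO versus 6.78 and 16.97 CPM in WT (log2 fold change -0.45, limma adjusted p = 0.616). Its value was 0.16 without WT replicate 2 and -1.05 without WT replicate 1. Itgb3, the beta 3 chain, which osteoclasts also use, had 50.8 and 56.7 CPM in Ptip_KO versus 60.7 and 47.0 CPM in WT (limma adjusted p = 0.983). Cd151, a tetraspanin, had 31.2 and 27.9 CPM in Ptip_KO versus 29.1 and 26.2 CPM in WT (limma adjusted p = 0.670). Gp1ba and Gp5, the remaining chains of the GPIb-IX-V complex, were under the filter. Gp1ba had 0.0394 and 0.128 CPM in Ptip_KO versus 0.122 and 0.178 CPM in WT, and Gp5 had 0.342 and 0.856 CPM in Ptip_KO versus 0.597 and 1.29 CPM in WT.

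The 13 tested granule and secreted genes had a median of 0.024, and limma called 0 of them, with 4 at an unadjusted p under 0.05; edgeR called 1, DESeq2 3 and limma-voom 0. F13a1, a clotting factor subunit that monocytes also make, had 2382 and 1699 CPM in Ptip_KO versus 3701 and 2850 CPM in WT. Its log2 fold change was -0.69 (limma adjusted p = 0.139, edgeR adjusted p = 0.119, DESeq2 adjusted p = 0.00248). Srgn, the granule proteoglycan serglycin, had 314 and 348 CPM in Ptip_KO versus 311 and 425 CPM in WT (limma adjusted p = 0.668). Thbs1, which encodes the granule protein thrombospondin 1 and was picked after its values were seen, had 7.15 and 3.97 CPM in Ptip_KO against 32.5 and 220 CPM in WT. Its log2 fold change was -3.76 (limma adjusted p = 0.0610, DESeq2 adjusted p = 0.00319), with the WT libraries far apart. That fold change was -2.40 without WT replicate 2, -5.12 without WT replicate 1 and -4.12 without Ptip_KO replicate 1.

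Of 10 tested cytoskeletal genes, Actn1, an actin cross-linker mutated in some inherited low platelet counts, fell to 12.9 and 11.3 CPM in Ptip_KO, against 29.7 and 48.2 CPM in WT (log2 fold change -1.57, limma adjusted p = 0.0225). Flna, filamin A, had 3464 and 3392 CPM in Ptip_KO versus 3755 and 3211 CPM in WT (limma adjusted p = 0.9595). Myh9, the heavy chain of non-muscle myosin, had 2386 and 2303 CPM in Ptip_KO versus 2477 and 2038 CPM in WT (limma adjusted p = 0.854). Tubb1, the beta tubulin particular to megakaryocytes and platelets, was under the filter with 0.328 and 0.514 CPM in Ptip_KO versus 0.516 and 2.75 CPM in WT.

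Among 7 tested enzymes and signalling genes, Tbxas1, thromboxane synthase, fell to 5.04 and 5.75 CPM in Ptip_KO, against 25.6 and 31.0 CPM in WT (log2 fold change -2.19, limma adjusted p = 0.00345). Ptgs1, the cyclooxygenase upstream of it and the target of aspirin in platelets, had 27.8 and 23.9 CPM in Ptip_KO versus 19.6 and 40.1 CPM in WT (limma adjusted p = 0.869). Rgs18, a regulator of G protein signalling in platelets and myeloid cells, had 85.7 and 67.0 CPM in Ptip_KO versus 51.8 and 51.6 CPM in WT (log2 fold change 0.54, limma adjusted p = 0.0731). Rgs18 stayed higher in Ptip_KO with any library left out, and the log2 fold change of Ptgs1 was -0.62 without WT replicate 1.

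Among the 12 tested transcription factors, Mef2c, a MADS-box factor of several blood lineages, rose to 166 and 159 CPM in Ptip_KO, against 100.1 and 116 CPM in WT (log2 fold change 0.59, limma adjusted p = 0.0347). The call was lost with edgeR (adjusted p = 0.0503). Gata1, the defining factor of megakaryocytes and red cells, had 1.90 and 4.94 CPM in Ptip_KO against 8.09 and 12.1 CPM in WT (log2 fold change -1.39, limma adjusted p = 0.0872). It was called by DESeq2 (adjusted p = 0.0102) and not by edgeR (adjusted p = 0.147), and it stayed lower in Ptip_KO with any library left out. Over the 12 factors, 7 log2 fold changes were positive and 5 negative, with a median of 0.065. Of the 12, 2 were called higher and 0 lower, where 2.43% and 3.86% of all tested genes were called higher and lower. Both of the following partners of GATA1, picked after their values were seen, lay close to the threshold. Gfi1b, a repressor, had 1.96 and 3.70 CPM in Ptip_KO against 6.70 and 9.09 CPM in WT (limma adjusted p = 0.0547), and Zfpm1, which encodes FOG1, had 12.5 and 20.9 CPM in Ptip_KO against 33.9 and 43.5 CPM in WT (limma adjusted p = 0.0524). With any library left out, both stayed lower in Ptip_KO. DESeq2 called both (adjusted p = 0.00256 for Gfi1b and 0.000269 for Zfpm1), and edgeR with the same filter did not (adjusted p = 0.0940 and 0.0825). Nfe2, a factor of platelet release, had 242 and 226 CPM in Ptip_KO versus 239 and 228 CPM in WT (limma adjusted p = 0.985), and Fli1, an ETS factor, had 238 and 230 CPM in Ptip_KO versus 223 and 206 CPM in WT (limma adjusted p = 0.454).

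**Figure D4:**
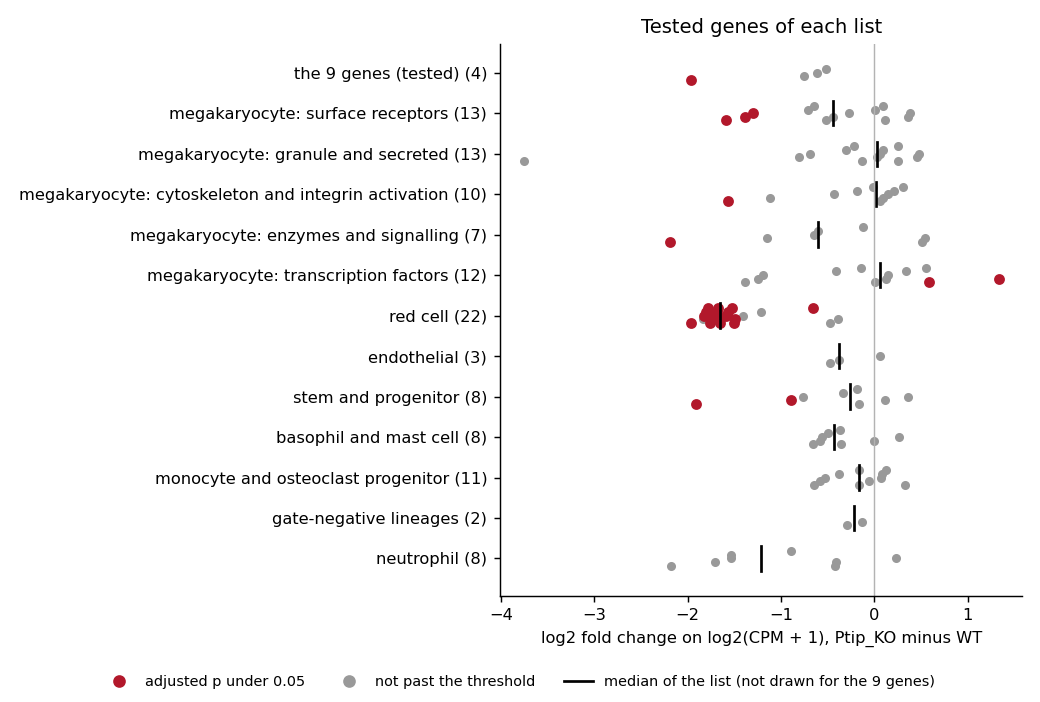
Log2 fold change of Ptip_KO against WT on the log2(CPM + 1) scale (x axis) for each tested gene of each list (rows, with the number tested); red points have a limma adjusted p under 0.05 and black bars are list medians, not drawn for the 9 genes. Of the 9 genes 4 were tested and 1 is red, while 17 of 22 red cell genes are red and lie left of 0. Over all tested genes, 3.86% were called lower.

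The genes whose pattern over the 4 libraries was closest to the mean pattern of the 4 tested genes were named by Euclidean distance between mean-centred log2(CPM + 1) values. They were Spns2, a transporter of sphingosine 1-phosphate (0.0961), the immunoglobulin segment Igkv12-46 (0.127), the alpha tubulin Tuba8 (0.180), the kinase Plk3 (0.186) and Angpt1, the TIE2 ligand angiopoietin 1 (0.187). Spns2 had 1.63 and 3.27 CPM in Ptip_KO versus 4.25 and 8.17 CPM in WT. Angpt1 had 3.81 and 6.01 CPM in Ptip_KO versus 6.96 and 12.3 CPM in WT. Their likeness to that mean pattern is what chose them. The tested members themselves lay further from it, at 1.07 for Pdzk1ip1, 0.50 for Pf4, 0.49 for Vwf and 0.46 for F2r. Tuba8 also belongs to the wider megakaryocyte list.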

How the data were processed

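Per the labels' protocols, the libraries were prepared from polyadenylated RNA with a strand-marking Illumina kit. Upstream tools listed in the submitters' processing notes are TopHat2 2.0.10, HTSeq 0.6.0, edgeR 3.8.6 and build mm10; whether counting used strand is not given in the sources used here. The unit of the deposited file is a signal, counts that the authors scaled with edgeR to each effective library size (CPM). Whole reads were recovered from it: in each library 100% of 18276 values were multiples of 1 step within 0.01 read.

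Identifiers were matched to GENCODE M21 (GRCm38, the assembly of mm10) without their version, and 18249 had a symbol. Genes at 1 CPM or more in at least 2 libraries (12357) were tested on log2(CPM + 1) with limma 3.58.1 in R 4.3.3, 2-sided, with a trended variance prior, no term but genotype, and Benjamini-Hochberg adjustment over all tested genes at 0.05. Fold changes are on that scale, which understates those of low genes. The recovered reads were also tested with edgeR 4.0.16 (quasi-likelihood), which called 660 genes where limma called 777, and with DESeq2 1.42.0 and limma-voom. Other alternatives were pseudocounts, filters, scalings, a robust prior, a replicate block and each library left out. On simulated counts for this comparison, with 200 of 12357 genes changed, limma recovered 25% of 1.5-fold, 79.7% of 2-fold and 98.5% of 4-fold changes, with 6 false calls. The counts were drawn with a dispersion trend common to both groups, over genes of all tested levels. These shares need not hold at the low levels of the members.

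The members and lists were chosen with earlier results of these data known. Named besides the 9 members were, per role of the wider list, the 3 called genes with the smallest p and the 2 uncalled genes of highest level, with 7 defining genes; per other list, up to 3 called genes and the highest; called adjacent genes; the 5 closest profiles; and Paxip1 and Csf1r. Thbs1, Gfi1b, Zfpm1, Cdh5, Tal1, Cd3e, Xist and Ddx3y were chosen after their values were seen. Some genes that this rule names are not reported here. Near-identical transcripts were sought with BLAST 2.17.0 at 95% identity over at least 200 bases and 50% of the shorter transcript. Replicates differed beyond sampling noise, with a chi-square per degree of freedom of 38.2 in Ptip_KO and 82.1 in WT.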

Additional observations from a re-analysis of the deposited data

How the results depend on the processing

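The call of Pdzk1ip1 held in every setting run, and the other 8 genes were not called in any, except Pf4 and Vwf without WT replicate 1. The members called numbered 1 to 3 with a library left out. Over all genes the 777 calls became 1721 with the replicate block and 1906 with DESeq2. With a library left out they were 452 (Ptip_KO replicate 1), 476 (Ptip_KO replicate 2), 1495 (WT replicate 1) and 1620 (WT replicate 2). The 7 calls of the wider megakaryocyte list became 4 after rescaling to a common sum and with limma-voom, 21 with the replicate block and with DESeq2, and 6, 11, 21 and 19 with those libraries left out in the same order. The cause was not tested. Replicate numbers were not taken as pairs: deviations of same-numbered libraries correlated at 0.33 over only 2 pairs, no label links them, and the numbers are those of the sample titles, from which the file column of WT replicate 2 differs. Under the block the number of members called was 1. Of the members, Gp1bb turned to 0.0092 and Treml1 to 0.29 without WT replicate 2, and Gp6 to 0.010 without Ptip_KO replicate 1 and 0.13 without WT replicate 2. Among the other named genes, the sign of 10 uncalled ones turned with the library left out: the log2 fold change ranged from -0.17 to 0.19 for Itgb3 (-0.070 without Ptip_KO replicate 2), -0.36 to 0.086 for Srgn, -0.13 to 0.094 for Flna, -0.080 to 0.20 for Myh9, -0.62 to 0.38 for Ptgs1, -0.047 to 0.055 for Nfe2 (-0.031 without WT replicate 2), -0.025 to 0.38 for Treml2, -0.31 to 0.84 for Hdc, -0.0076 to 0.46 for Mpo, and -1.05 to 0.16 for Itga2b. Signs also turned for Itgb3 (-0.0025, edgeR without filter), Flna (0.032, common sum) and Nfe2 (-0.0014, median-of-ratios factors). With a filter of 5 CPM only Pdzk1ip1 of the 9 was tested. Where 1 library of a group is left out, the remaining one is assumed to vary like the other group. Depth limits the 5 members under the filter, which no setting with that filter could test.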
